A study of Mus musculus with 5 samples.

Results

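The genes of cholesterol and fatty acid synthesis, with the regulators of the SREBP pathway that switch them on, were read step by step in cultured mouse optic nerves. The set holds 36 genes chosen by name, 16 enzymes of sterol synthesis, 15 of fatty acid synthesis and 5 SREBP regulators (no measured value enters the rule). Of these, 35 had a probe set that names a single gene and were tested, among 12935 tested genes and 18193 genes with such a probe set. *Acat2*, which joins 2 acetyl-CoA at the head of the sterol pathway, had no such probe set in the annotation used here and has no value.

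Optic nerves of C57BL/6 mice aged P35 to P45 were kept for 3 days in organotypic culture with LY294002, an inhibitor of PI3K, and their total RNA was hybridised to Affymetrix mouse arrays. Of the 5 arrays analysed here, 3 are of the lower concentration (L-LY29, labelled 0.5 µM) and 2 of the higher one (H-LY29, labelled 50 µM). The paper's text gives adult nerves a higher L-LY29 concentration than these labels do, and the treatment entries of the labels spell the compound LY295002, so the L-LY29 concentration is uncertain. Per the methods, nerves were removed with the retina, cleaned of arachnoid and attached tissue, and cultured in medium that contains horse serum, which the nerves of both concentrations share. Untreated nerves were not analysed here. Every difference below is therefore L-LY29 minus H-LY29 in log2 units, and a value above 0 means a brighter signal in L-LY29. The methods give the mice and nerves behind the arrays in all, but no source used here says how these were split over single arrays, so the p-values cover array-to-array spread alone, which may be technical.

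Cells make cholesterol from acetyl-CoA through mevalonate, isoprenoids, squalene and lanosterol, and they make fatty acids from the same acetyl-CoA by carboxylation, chain synthesis, elongation and desaturation. SREBP transcription factors rest in the endoplasmic reticulum bound to the escort protein SCAP and are held there by INSIG proteins while sterol is plentiful; when sterol runs low they are cleaved and enter the nucleus, where they bind sterol regulatory elements and E-boxes, often beside NF-Y and Sp1. Oligodendrocytes are known for high rates of both pathways, since myelin is rich in cholesterol and long-chain lipids that are largely made within the nervous system, and PI3K signalling through Akt and mTOR is a known activator of SREBP.

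NF-Y and Sp1 boxes were common in the promoters of these genes, and the sequences below are shown because genes with such boxes lay on both sides of the comparison. RefSeq promoters (250 bases before and 50 after a start, mouse build GRCm38.p6) were listed for 30 of the 36 genes and were searched on both strands. *Fdps*, *Fdft1*, *Sqle*, *Scd1*, *Scd2* and *Fads1* had no entry. The 200 bases before the upstream-most listed start are printed from 5′ to 3′ on the strand of the gene. Capitals mark matches that lie wholly within these bases to the sterol regulatory element TCACNCCAC, the E-box CACGTG, the NF-Y box CCAAT or the Sp1 box GGGCGG, or to their reverse complements.
*Hmgcs1*, chr13:119690151-119690350, plus strand: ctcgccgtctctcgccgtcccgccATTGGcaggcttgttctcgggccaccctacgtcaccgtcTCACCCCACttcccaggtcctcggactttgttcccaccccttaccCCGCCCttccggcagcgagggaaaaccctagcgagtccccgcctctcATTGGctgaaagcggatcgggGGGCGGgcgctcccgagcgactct
*Sc5d*, chr9:42264301-42264500, minus strand: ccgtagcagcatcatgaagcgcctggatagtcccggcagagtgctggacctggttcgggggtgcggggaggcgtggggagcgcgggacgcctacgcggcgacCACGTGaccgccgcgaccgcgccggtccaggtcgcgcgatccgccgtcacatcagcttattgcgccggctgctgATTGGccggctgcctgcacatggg
*Insig1*, chr5:28071212-28071411, plus strand: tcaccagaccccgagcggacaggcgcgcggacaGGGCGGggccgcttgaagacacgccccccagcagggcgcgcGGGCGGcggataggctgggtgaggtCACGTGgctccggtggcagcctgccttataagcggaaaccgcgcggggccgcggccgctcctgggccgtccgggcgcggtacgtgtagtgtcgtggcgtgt
*Fasn*, chr11:120824548-120824747, minus strand: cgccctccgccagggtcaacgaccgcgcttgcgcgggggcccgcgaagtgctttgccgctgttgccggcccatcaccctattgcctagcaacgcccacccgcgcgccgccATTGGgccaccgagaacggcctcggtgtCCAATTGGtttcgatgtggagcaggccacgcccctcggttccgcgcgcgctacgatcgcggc
*Srebf2*, chr15:82147069-82147268, plus strand: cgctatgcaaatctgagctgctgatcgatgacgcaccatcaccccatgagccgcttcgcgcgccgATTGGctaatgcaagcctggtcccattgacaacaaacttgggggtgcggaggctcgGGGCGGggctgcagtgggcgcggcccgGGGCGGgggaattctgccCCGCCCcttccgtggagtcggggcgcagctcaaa
*Hmgcs1* was the single gene of the set with the sterol regulatory element as spelled here, on the strand of the gene at −137 from the start. *Sc5d* and *Insig1* each held 1 E-box, at −98 and −101, and had differences of opposite sign. *Fasn* held 3 NF-Y boxes, of which those at −62 and −59 overlap and are read once on each strand, and *Srebf2* held 1 at −135.

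An NF-Y box was found in 24 of the 30 genes (80.0%), where 41.1% of all 27025 genes with a listed promoter and 42.2% of the 10419 that were also tested on the arrays held one. The 5 tested genes without it were *Acaca*, *Elovl6*, *Elovl7*, *Fads2* and *Scap*. An Sp1 box was found in 83.3% of the set and in 38.2% of all genes and 67.6% of tested genes, and an E-box in 20.0% against 8.09% and 11.5%. The sterol regulatory element was in 3.33% of the set, 1.44% of all genes and 1.37% of tested genes. By single promoters of the same length, 62.5% of the 40 in the set held an NF-Y box and 37.4% of all 32851. An NF-Y box stood in 10 of 11 genes called higher in L-LY29 and in 11 of 15 called lower. An E-box stood in 1 of 11 (*Sc5d*) and in 5 of 15 (*Hsd17b7*, *Insig1*, *Dhcr7*, *Elovl5* and *Scap*). These matches are letters in a window and not measured binding.

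A gene was represented by its brightest probe set and called different at an adjusted p under 0.05 (limma, Benjamini-Hochberg over all tested genes). Across all tested genes 73.8% were called, 27.1% higher and 46.6% lower in L-LY29, and for 83.1% the arrays of the doses did not overlap. A call alone is therefore common on these arrays, and sizes, probe sets and arrays are given beside it. Among the 35 lipid synthesis genes 12 were higher and 16 lower, 7 did not pass, and for 33 the doses did not overlap. Their median difference was −0.10, and that of all tested genes was −0.26. Differences over 1 log2 unit among called genes, a limit chosen after the values were seen, were found for 3 of them towards L-LY29 (*Lss*, *Sc5d* and *Fasn*) and for 11 towards H-LY29, beside 12.6% and 29.1% of all tested genes. Without L-LY29 replicate 1 or 3 *Lss* left the first count, which was then 2, and with any 1 array left out the counts were 2 to 4 and 6 to 10, the 6 without H-LY29 replicate 1. With equal array medians they were 6 and 8, with the mean of probe sets 4 and 6, and with the second brightest probe set 5 and 4. Sterol enzymes had a median of 0.13, fatty acid enzymes of 0.34 and SREBP regulators of −0.27.

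The arrays of the doses also differed as arrays. Poly-A control RNAs, added before labelling, had mean signals between 9.97 and 10.45 (L-LY29) or of 3.17 (H-LY29), the 3′ minus 5′ difference of the *Gapdh* probe sets was −0.15 to −0.09 and 0.65 to 0.73, and array medians were 5.33 to 5.35 and 5.54 to 5.56. Quantile normalization moved the median of all genes by 0.33, and the part of the calls that favoured L-LY29 went from 36.8% to 52.1%, while equal array medians gave a shift of 0.21 and 47.2%. Oligodendrocyte markers were bright on all 5 arrays, with mean levels of 12.26 to 12.35 (L-LY29) and 11.96 to 12.10 (H-LY29), so the labelled white matter tissue was present in each. Of 11 such markers 8 were higher and 3 lower. Astrocyte markers (10 tested, 1 higher, 5 lower) had mean levels of 8.66 to 9.31 and 10.39 to 10.58, and fibroblast markers (8 of 8 lower) of 7.97 to 8.61 and 10.85 to 11.17. Ocular surface epithelium markers (10 tested, 8 higher) lay at 7.68 to 10.07 and 4.26 to 4.46. Microglia markers (9 tested, 7 higher, 2 lower) lay at 9.43 to 9.54 and 8.74 to 8.94, and those of oligodendrocyte precursors (8 tested, 2 higher, 4 lower) at 7.68 to 8.11 and 8.34 to 8.65. Axon and neuron markers (6 tested, 4 higher, 2 lower) lay at 7.56 to 7.66 and 6.62 to 6.75, and endothelial markers (6 tested, 3 higher, 1 lower) at 7.08 to 7.49 and 6.55 to 6.70. Of 3 tested skeletal muscle markers 2 were higher, and of 2 tested retina markers 1 was lower. Adipocyte markers, of a lipid-making cell, had 5 of 10 genes tested, 2 higher and 1 lower, at 6.09 to 6.49 and 5.62 to 6.62. The part of control RNAs and cell types in the differences below was not tested, while values under both scalings stand beside each gene whose call they change, and in RNA of whole nerves fewer cells of a type and less RNA per cell cannot be told apart.

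The mevalonate steps were lower in L-LY29 for 3 of 4 measured enzymes by their brightest probe sets, beside 46.6% of all tested genes. With the second brightest probe set *Hmgcs1* was higher (0.31), and *Mvk* and *Mvd* did not pass (0.0016 and −0.30). *Hmgcs1*, the cytosolic HMG-CoA synthase, had signals of 13.37, 13.20 and 13.25 on L-LY29 replicates 1, 2 and 3 and of 13.67 and 13.70 on H-LY29 replicates 1 and 2. Both H-LY29 arrays were above all L-LY29 arrays, and the difference was −0.41 (SE 0.0583, adjusted p = 0.00206), or −0.20 with equal array medians. Its 5 probe sets did not move together, as 2 were higher, at 0.31 and 0.33, another was lower, at −1.39, and 1 did not pass, at −0.11. *Mvk*, the mevalonate kinase, had signals of 6.67, 6.77 and 6.78 in L-LY29 and of 7.85 and 7.63 in H-LY29, with no overlap. The difference was −1.001 (SE 0.106, adjusted p = 7.20e-04), but the other probe set stood at 0.0016 and did not pass. Without H-LY29 replicate 1 that other probe set was the brighter one and the call ended, and after quantile normalization the difference was −0.47. *Pmvk*, the phosphomevalonate kinase that follows, was the exception among these steps. It had signals of 10.31, 10.21 and 10.23 in L-LY29 and of 9.64 and 9.51 in H-LY29, so each L-LY29 array was above both H-LY29 arrays, by 0.68 in the mean (SE 0.0674, adjusted p = 5.84e-04). *Mvd*, the decarboxylase that yields isopentenyl diphosphate, had signals of 7.85, 7.59 and 7.85 in L-LY29 and of 8.99 and 8.45 in H-LY29. The difference of −0.95 (SE 0.191, adjusted p = 0.00763) was larger than the spread within L-LY29, and the H-LY29 arrays themselves lay 0.54 apart. Its other probe set did not pass, at −0.30, and after quantile normalization the call ended (−0.49, adjusted p = 0.0602). With equal array medians the call held (−0.74, adjusted p = 0.0143).

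Of the isoprenoid and squalene steps 1 was higher, 1 was lower and 2 did not pass, beside 27.1% of all tested genes higher and 46.6% lower. *Idi1*, the isomerase that starts chain assembly, had signals of 11.67, 11.63 and 11.68 in L-LY29 and of 10.94 and 10.80 in H-LY29. All L-LY29 arrays lay within a few hundredths of each other and above H-LY29, and the difference was 0.79 (SE 0.0569, adjusted p = 2.11e-04), with 0.92 at its other probe set. *Fdps*, which makes farnesyl diphosphate, had signals of 10.70, 10.29 and 10.32 in L-LY29 and of 10.32 and 10.05 in H-LY29. The doses overlapped, and the difference of 0.25 had a 95% interval of −0.16 to 0.67 (adjusted p = 0.210). It passed after quantile normalization (0.43, adjusted p = 0.0483) and with equal array medians (0.47, adjusted p = 0.0384). *Fdft1*, the squalene synthase, had 4 probe sets at −0.19 to 0.38 that did not pass, with 0.13 at the brightest and an interval of −0.07 to 0.32. The brightest passed with equal array medians (0.34, adjusted p = 0.0112) but not after quantile normalization (0.17, adjusted p = 0.0890). *Sqle*, the squalene epoxidase and a rate-limiting oxygenation of the pathway, had signals of 9.45, 8.72 and 8.94 in L-LY29 and of 10.03 and 10.05 in H-LY29. L-LY29 was lower on every array but spread over 0.73 log2 units. The difference was −1.004 (SE 0.224, adjusted p = 0.0111), and without H-LY29 replicate 1 or 2 it no longer passed (−1.01, adjusted p = 0.105, and −0.99, adjusted p = 0.108).

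**Figure D1:**
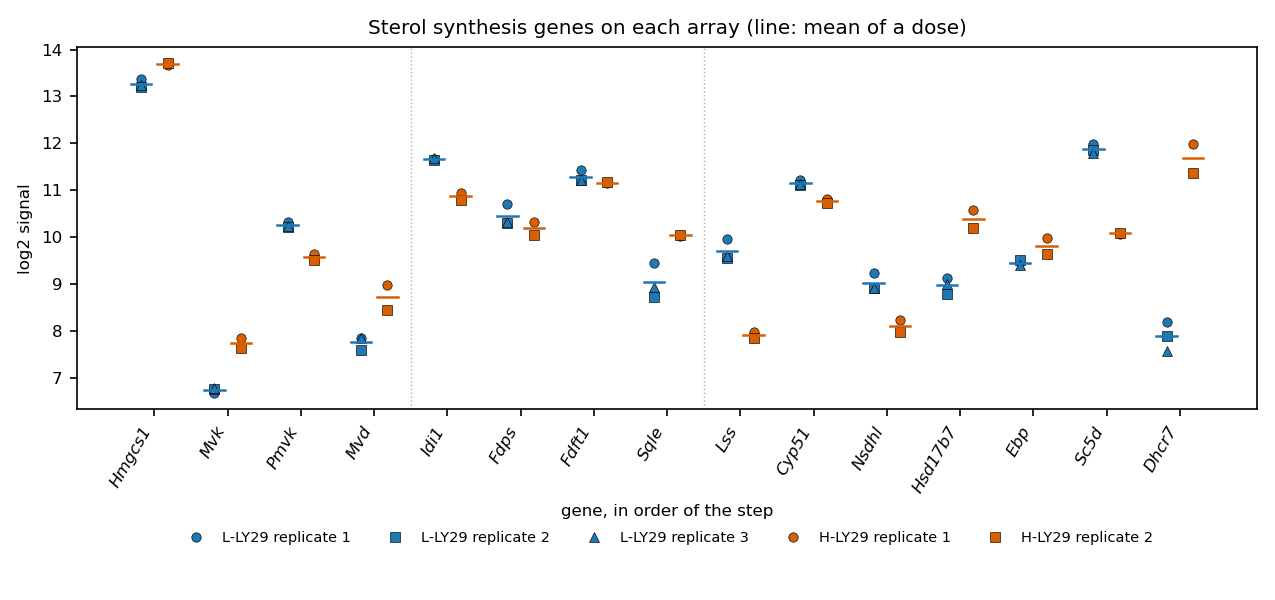
Log2 signal (vertical axis) of the 15 measured sterol synthesis genes in the order of their steps (horizontal axis), with a point for each of 3 L-LY29 (blue) and 2 H-LY29 (orange) arrays, a line at the mean of a dose and dotted lines between mevalonate, isoprenoid and squalene, and lanosterol steps. *Dhcr7* had the widest gap, with L-LY29 at 7.57 to 8.18 and H-LY29 at 11.37 and 11.99, while *Lss* and *Sc5d* were brighter in L-LY29; signals are not compared between genes.

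From lanosterol to cholesterol all 7 measured enzymes were called, 4 higher and 3 lower. Across all tested genes 73.8% were called, 27.1% higher and 46.6% lower. Some neighbouring steps, such as *Sc5d* and *Dhcr7*, went opposite ways, and others went the same way. *Lss*, the cyclase that folds squalene epoxide into lanosterol, had signals of 9.96, 9.55 and 9.60 in L-LY29 and of 7.97 and 7.84 in H-LY29. It was 1.801 higher (SE 0.146, adjusted p = 2.98e-04), a ratio of 3.49 in signal, with 0.60 at a second probe set and −1.25 at the remaining one. Without L-LY29 replicate 1 or 3 the second probe set became the brightest and the difference was 0.49 or 0.67, and with the mean of its probe sets it was 0.38. *Cyp51*, the lanosterol demethylase, was 0.39 higher (SE 0.0562, adjusted p = 0.00225), with signals of 11.23, 11.11 and 11.14 in L-LY29 and 10.81 and 10.73 in H-LY29. Equal array medians made this 0.60. Its other probe sets were at 0.26, where the call would end (adjusted p = 0.190), and at 0.77, higher. *Nsdhl*, a sterol dehydrogenase of a later step, was 0.92 higher (SE 0.140, adjusted p = 0.00275), with 9.23, 8.92 and 8.92 against 8.22 and 7.98. *Hsd17b7*, the ketoreductase that works with it, was 1.41 lower by its brightest probe set, at 9.13, 8.78 and 9.01 in L-LY29 and 10.57 and 10.19 in H-LY29. That probe set ends in _x_at, the suffix for probes that can match other transcripts, and of its 3 others 1 was higher, at 1.72, and 2 did not pass, at −0.18 and 0.22. The direction of *Hsd17b7* was thus not the same over its probe sets.

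*Ebp*, the sterol isomerase, was 0.35 lower with an adjusted p of 0.0446. Its signals were 9.47, 9.50 and 9.39 in L-LY29 and 9.98 and 9.63 in H-LY29, and the call ended without any single array other than H-LY29 replicate 2 (−0.17 without H-LY29 replicate 1, and −0.37 to −0.32 without 1 of the L-LY29 arrays). It also ended after quantile normalization (−0.06, adjusted p = 0.685), with equal array medians (−0.14, adjusted p = 0.304), without the filter (adjusted p = 0.0556) and without the variance trend (adjusted p = 0.0538). *Sc5d*, the desaturase that makes 7-dehydrocholesterol, had signals of 11.99, 11.86 and 11.80 in L-LY29 and of 10.07 and 10.09 in H-LY29. These groups were narrow and far apart, and the difference of 1.802 (SE 0.0674, adjusted p = 5.25e-05) lay beside that of *Lss*, with 1.89 at a second probe set and 0.55, not passing, at the last. *Dhcr7*, the reductase that turns 7-dehydrocholesterol into cholesterol, had signals of 8.18, 7.88 and 7.57 in L-LY29 and of 11.99 and 11.37 in H-LY29. This was the widest difference of the set, at −3.80 (SE 0.259, adjusted p = 1.81e-04) or a ratio of 14.0 in signal, and 1.23% of all tested genes had a difference further towards H-LY29. So the enzyme that makes 7-dehydrocholesterol was brighter in L-LY29 and the one that uses it up was dimmer. *Dhcr7* rests on 1 probe set. Under the alternatives its difference ran from −4.11 to −3.49, and that of *Sc5d* from 1.41 to 2.01.

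Of the 5 SREBP regulators 3 were lower, 2 did not pass and 0 were called higher by limma. At an unadjusted p under 0.05 also 0 were higher, since all 5 differences were below 0. Across all tested genes 27.1% were higher and 46.6% lower. For the 5 regulators quantile normalization gave 2 higher and 2 lower. *Srebf2*, which encodes the SREBP that chiefly drives sterol genes, had signals of 8.25, 7.45 and 7.90 in L-LY29 and of 9.89 and 9.81 in H-LY29. Every L-LY29 array was below both H-LY29 arrays. The difference was −1.99 (SE 0.243, adjusted p = 0.00121), its other probe set stood at −2.32, and the range over the alternatives was −2.32 to −1.63. *Insig1*, the retention protein that is itself an SREBP target, had signals of 9.88, 9.19 and 9.31 in L-LY29 and of 11.32 and 11.12 in H-LY29. Its difference on 1 probe set was −1.76 (SE 0.228, adjusted p = 0.00148), with no overlap. *Scap*, the escort protein, was 0.27 lower (SE 0.0649, adjusted p = 0.0147), though at 0.12, not passing, after quantile normalization and at −0.06, not passing, with equal array medians. *Srebf1*, which encodes the SREBP of fatty acid genes, overlapped between the doses at 8.25, 8.04 and 8.22 in L-LY29 and 8.19 and 8.34 in H-LY29. Its difference was −0.10 (interval −0.36 to 0.17, adjusted p = 0.428), and it turned to 0.38 and passed after quantile normalization (adjusted p = 0.0201), and to 0.12 with equal array medians. *Insig2*, the other retention protein, stood at −0.10 (interval −0.24 to 0.05) with the identical value, 9.22, on all L-LY29 arrays. It was at 0.26 after quantile normalization (adjusted p = 0.0121) and 0.12 with equal array medians. Its other probe sets were at −0.57, lower (adjusted p = 0.00838), and at 0.09, not passing. With the mean of its probe sets *Insig2* passed, at −0.19 (adjusted p = 0.0365). Without H-LY29 replicate 1 or 2 *Insig2* passed, at −0.07 (adjusted p = 0.0413) and −0.12 (adjusted p = 0.0142). The *Srebf2* and *Insig1* transcripts thus stood apart by dose. At their brightest probe sets the directions of *Srebf1*, *Scap* and *Insig2* depended on the scaling of the arrays.

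The supply of acetyl-CoA and NADPH for fatty acids was mixed. *Acly*, the ATP citrate lyase that releases acetyl-CoA from citrate, had signals of 11.23, 11.06 and 11.23 in L-LY29 and of 12.56 and 12.47 in H-LY29 at its brightest probe set, another with the _x_at suffix. That difference was −1.34 (SE 0.0727, adjusted p = 1.02e-04), while the second stood at −0.14, not passing, and the third at 1.92, higher. *Acly* thus had called probe sets in both directions. *Acss2*, which makes acetyl-CoA from acetate, was brighter on every L-LY29 array, at 10.40, 9.88 and 10.18 against 9.74 and 9.75. Its difference of 0.41 just missed the limit (interval −0.0045 to 0.82, adjusted p = 0.0682). It passed without L-LY29 replicate 2 (0.54, adjusted p = 0.0120) and without H-LY29 replicate 2, where a different probe set stood for it (1.34, adjusted p = 0.0356). It also passed after quantile normalization (0.67, adjusted p = 0.00786), with equal array medians (0.62, adjusted p = 0.0154) and with the mean of its probe sets (0.45, adjusted p = 0.0175). Its other probe sets were at 1.48, higher, and −0.53, lower. *Me1*, the malic enzyme that supplies NADPH, was higher at both probe sets, by 0.75 (SE 0.0725, adjusted p = 5.18e-04) and 2.07, with L-LY29 at 11.03, 10.99 and 11.02 and H-LY29 at 10.36 and 10.15 on the first. *Acsl3*, which activates fatty acids to acyl-CoA, was 0.45 higher (adjusted p = 0.00484) with another probe set lower, at −0.37.

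Both enzymes that build the fatty acid chain were higher in L-LY29, beside 27.1% of all tested genes. *Acaca*, the acetyl-CoA carboxylase that makes malonyl-CoA, had signals of 10.05, 9.92 and 9.98 in L-LY29 and of 9.59 on both H-LY29 arrays. The difference was 0.395 (SE 0.0592, adjusted p = 0.00257), with 0.25, not passing, at its other probe set, and 0.68 and 0.61 under quantile normalization and equal array medians. *Fasn*, the fatty acid synthase, had signals of 10.94, 10.63 and 10.89 in L-LY29 and of 9.63 and 9.36 in H-LY29. Each L-LY29 array was above both H-LY29 arrays, and the difference was 1.32 (SE 0.133, adjusted p = 6.08e-04) or a ratio of 2.50 in signal, with 1.19 to 1.56 over the alternatives. In 8.45% of all tested genes the difference was further towards L-LY29.

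**Figure D2:**
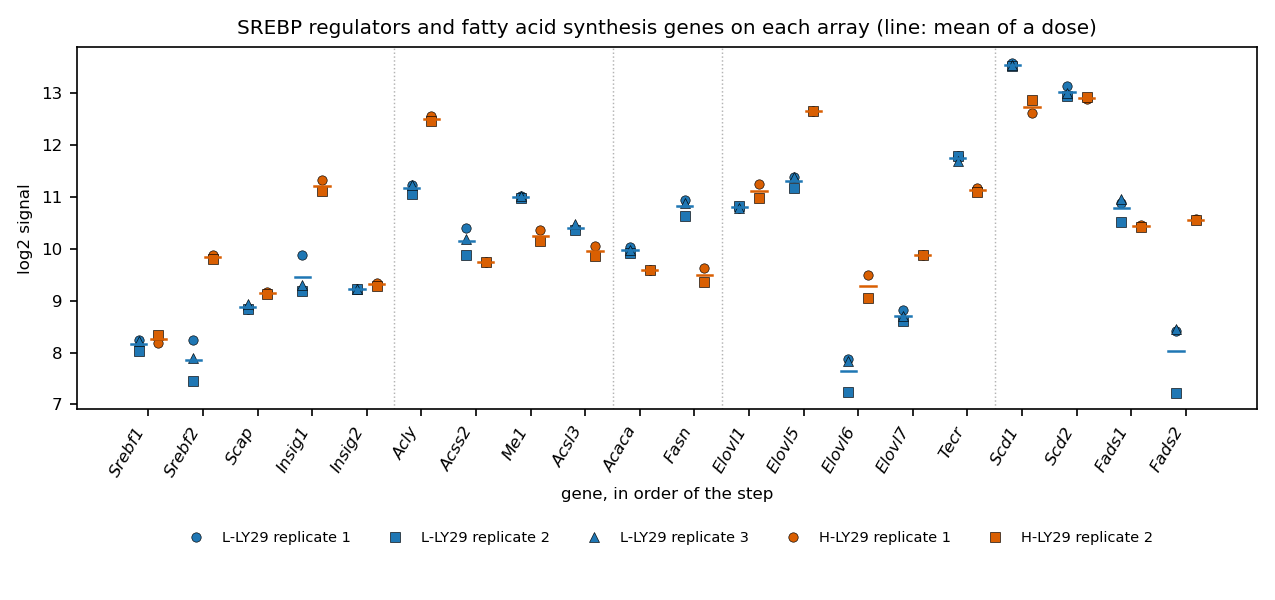
Log2 signal (vertical axis) of 5 SREBP regulators and 15 fatty acid synthesis genes (horizontal axis, with dotted lines between regulators, supply, chain synthesis, elongation and desaturation), with a point for each of 3 L-LY29 (blue) and 2 H-LY29 (orange) arrays and a line at the mean of a dose. *Fasn* lay at 10.63 to 10.94 in L-LY29 and at 9.36 and 9.63 in H-LY29, whereas *Srebf2*, *Insig1*, *Elovl5*, *Elovl6* and *Fads2* were dimmer on all L-LY29 arrays.

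Elongation was lower in L-LY29 for 4 of 5 enzymes by their brightest probe sets, with a median of −1.17, beside 46.6% of all tested genes. With the second brightest probe set *Elovl5* alone stayed lower. *Elovl1* and *Elovl6* then did not pass (−0.14 and −0.45), and *Elovl7* was higher (0.69). *Elovl5*, which lengthens polyunsaturated chains, had signals of 11.38, 11.17 and 11.38 in L-LY29 and of 12.66 and 12.67 in H-LY29. Both of its probe sets were lower, at −1.35 (SE 0.0779, adjusted p = 1.18e-04) and −0.90. *Elovl6*, which lengthens palmitate, had signals of 7.87, 7.23 and 7.85 in L-LY29 and of 9.50 and 9.06 in H-LY29. Its difference of −1.63 (SE 0.255, adjusted p = 0.00301) did not pass without H-LY29 replicate 1 (−1.41, adjusted p = 0.0516), and its other probe sets did not pass, at −0.45 and −0.48. *Elovl7*, an elongase of saturated long chains, was at −1.17 on the brightest of 6 probe sets (adjusted p = 1.78e-04). Among the others 2 were lower, at −1.61 and −3.38, 1 was higher, at 0.69, and 2 did not pass. The one that was higher became the brightest without H-LY29 replicate 1 and gave 0.54 (adjusted p = 0.00469). *Elovl1*, of very long chains, was 0.31 lower (adjusted p = 0.0210) with probe sets from −2.47 to 0.49, and without any single L-LY29 array it no longer passed, at −0.33 to −0.31 (adjusted p = 0.0570 to 0.0675). Nor did it pass after quantile normalization (−0.25, adjusted p = 0.0520) or with equal array medians (−0.10, adjusted p = 0.286). *Tecr*, the reductase that closes each round of elongation, was higher at both probe sets, by 0.63 (SE 0.0510, adjusted p = 3.03e-04) and 0.30. *Elovl5* and *Tecr*, both steps of 1 cycle, thus differed in opposite directions at every probe set measured.

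Desaturases also divided. *Scd1*, a delta-9 desaturase that makes oleate, had signals of 13.58, 13.53 and 13.55 in L-LY29 and of 12.62 and 12.87 in H-LY29. It was 0.81 higher (SE 0.0770, adjusted p = 5.05e-04), with 2.35 at its other probe set. *Scd2*, the related enzyme that is abundant in brain, did not pass at its brightest probe set (0.13, interval −0.04 to 0.30). It passed there with equal array medians (0.34, adjusted p = 0.00608) but not after quantile normalization (0.06, adjusted p = 0.374). Both other probe sets were lower, at −0.99 and −0.54. No source used here says whether the probes tell these close relatives apart. *Fads1*, the delta-5 desaturase, had signals of 10.88, 10.52 and 10.97 in L-LY29 and of 10.46 and 10.42 in H-LY29. Its difference of 0.34 did not pass (adjusted p = 0.0824) but passed without L-LY29 replicate 2 (0.48, adjusted p = 0.00494), after quantile normalization (0.48, adjusted p = 0.0194) and with equal array medians (0.56, adjusted p = 0.0161), and its other probe set was lower, at −0.61. *Fads2*, the delta-6 desaturase, had signals of 8.41, 7.22 and 8.45 in L-LY29 and of 10.58 and 10.56 in H-LY29. Its difference was −2.54 (SE 0.413, adjusted p = 0.00347), a ratio of 5.80 in signal, although replicate 2 lay more than 1 log2 unit under the other L-LY29 arrays. Without H-LY29 replicate 1 or 2 the call ended, at −2.53 and −2.55 (adjusted p = 0.0601 and 0.0587). A second probe set was lower too, at −2.45, and the third did not pass, at 0.06.

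By step, fatty acid synthesis had 6 genes higher, 6 lower and 3 not passing, and sterol synthesis 6, 7 and 2. Of all tested genes 27.1% were higher and 46.6% lower. Without H-LY29 replicate 1 the lower counts were 3 and 4, since *Elovl6*, *Elovl7*, *Fads2*, *Mvk*, *Sqle* and *Ebp* left them. With the second brightest in place of the brightest probe set 3 sterol genes were lower.

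The probe sets of a gene often went different ways. Of 88 probe sets for these genes 84 were kept, and 26 of them were higher, 30 lower and 28 did not pass, so that 66.7% were called beside 72.8% of all kept probe sets. Of 26 genes with at least 2 kept probe sets, 18 had at least 2 that were called, and in 8 of these (44.4%) the called probe sets went both ways, beside 43.3% among all genes of that kind. The 8 were *Hmgcs1*, *Lss*, *Hsd17b7*, *Acly*, *Acss2*, *Acsl3*, *Elovl1* and *Elovl7*. In the other 10, *Idi1*, *Cyp51*, *Sc5d*, *Srebf2*, *Me1*, *Elovl5*, *Tecr*, *Scd1*, *Scd2* and *Fads2*, the called probe sets had 1 direction. The 9 genes with a single kept probe set, *Dhcr7*, *Insig1*, *Fasn*, *Pmvk*, *Nsdhl*, *Sqle*, *Ebp*, *Fdps* and *Srebf1*, had no such check. Of 11 kept probe sets with the _x_at suffix 2 were higher, 6 lower and 3 did not pass, and they stood for *Fdft1*, *Hsd17b7*, *Acly*, *Elovl1* and *Elovl5*. Probe positions within the transcripts were not used here.

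**Figure D3:**
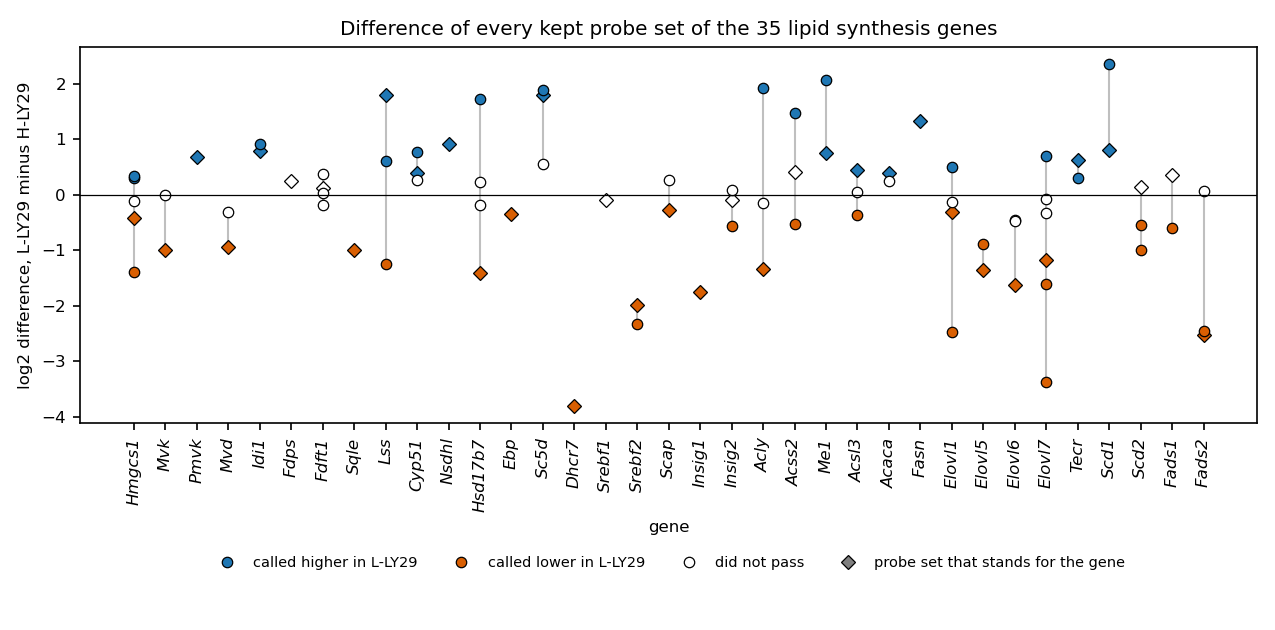
Log2 difference, L-LY29 minus H-LY29 (vertical axis), of all 84 kept probe sets of the 35 genes (horizontal axis), coloured by call, with a diamond for the probe set that stands for the gene and a grey line over the range of a gene. *Srebf2*, *Elovl5*, *Sc5d*, *Me1* and *Scd1* had every called probe set on one side of 0, and *Lss*, *Acly* and *Hsd17b7* on both sides.

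Direction and call held for 13 of the 35 genes under all alternatives that were run. Higher throughout were *Pmvk*, *Idi1*, *Lss*, *Nsdhl*, *Sc5d*, *Me1*, *Fasn*, *Tecr* and *Scd1*, with lowest values of 0.30 for *Tecr* and 0.38 for *Lss*. Lower throughout were *Dhcr7*, *Srebf2*, *Insig1* and *Elovl5*, with values nearest to 0 of −0.90 for *Elovl5* and −1.55 for *Insig1*. These alternatives include the second brightest probe set, which for *Lss* leaves out the third one that was lower. *Pmvk*, *Nsdhl*, *Dhcr7*, *Insig1* and *Fasn* have a single kept probe set, so other choices of probe sets could not change their differences.

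The L-LY29 arrays differed among themselves in a like way over many of these genes. Signals were highest on replicate 1 and lowest on replicate 2 in 18 of the 35 genes (51.4%), beside 12.7% of all tested genes, a count made after the values were seen. Replicate 2 was below both others in 25 genes (71.4%), beside 29.7%. By kept probe set these shares were closer, at 29.8% beside 11.9% for the first order and 45.2% beside 27.4% for replicate 2. Genes with equal values between L-LY29 arrays cannot show the first order. They were 17.1% of the set and 33.5% of all tested genes. The gaps reached 0.80 for *Srebf2*, 0.73 for *Sqle*, 0.69 for *Insig1*, 0.64 for *Elovl6* and 1.23 for *Fads2*, where replicate 3 was highest. Genes such as *Idi1*, *Me1*, *Scd1*, *Tecr* and *Elovl1* varied by 0.03 to 0.09 over the same arrays. On replicates 1, 2 and 3 the mean level of ocular surface epithelium markers was 10.07, 7.68 and 8.48, with the corneal keratin *Krt12* at 12.20, 9.73 and 11.02, and that of astrocyte markers was 9.31, 8.66 and 9.27. Their part in the spread of the lipid genes was not tested. The genes share the 3 arrays, so this pattern is 1 property of the arrays and not 18 results.

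**Figure D4:**
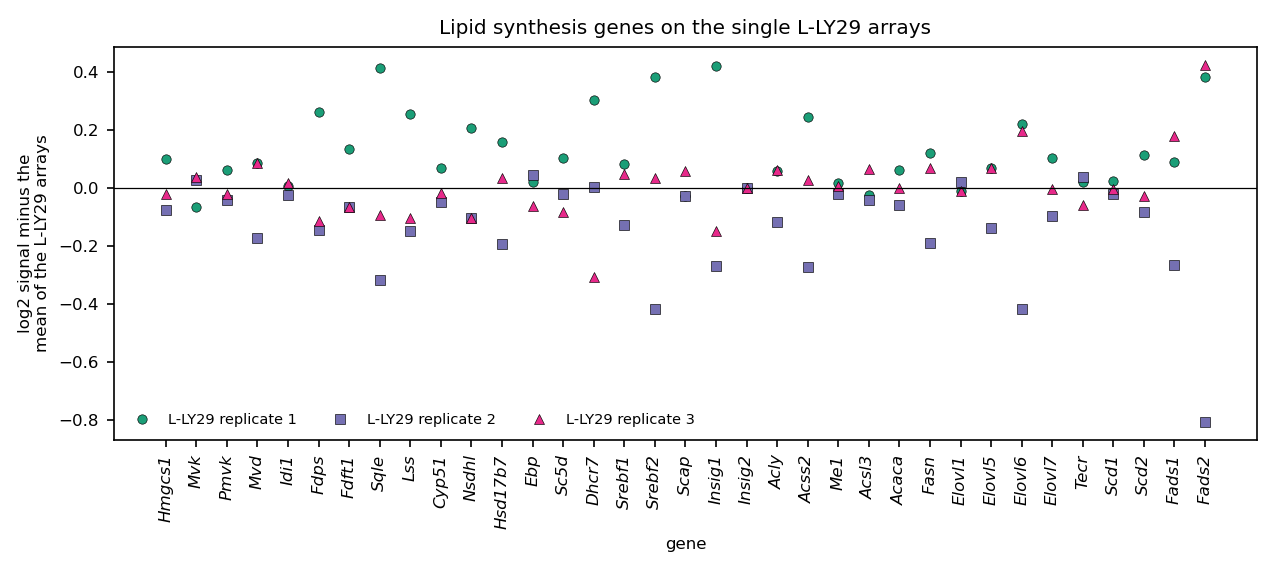
Log2 signal of each of the 35 genes on the 3 L-LY29 arrays minus its mean over them (vertical axis), in the order of the steps (horizontal axis). Replicate 1 lay highest and replicate 2 lowest for 18 genes, and *Fads2* had the widest spread.

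Values equal to the last digit between L-LY29 arrays were found for 6 of the 35 genes and for 33.5% of all tested genes. By probe set they were found for 30 of the 84 (35.7%) and for 33.6% of all kept ones, and 7 of the 84 had the identical value on all 3 arrays. The standard errors of such probe sets rest on fewer distinct values. *Insig2*, *Nsdhl*, *Mvd*, *Fdft1*, *Scap* and *Elovl5* were the 6 genes.

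Genes around these pathways, in lists chosen by name, were measured for 56 of 67, with 16 higher, 26 lower and 14 not passing and a median of −0.20. Among 7 other sterol and isoprenoid enzymes 2 were higher and 4 lower, with *Acat1*, the mitochondrial thiolase, at 1.09 and *Dhdds*, which makes dolichol chains, at −1.96. *Tm7sf2* and *Lbr*, both sterol reductases of the step between *Cyp51* and *Nsdhl*, were lower, at −0.93 and −0.34. In the machinery that cleaves SREBP, *Mbtps1*, the site-1 protease, was at −0.86 and *Mbtps2*, the site-2 protease, at 0.50, and 1 of 6 genes was higher and 3 were lower. Genes of LXR response and sterol efflux had 6 of 10 higher and 3 lower, with a median of 0.36. *Mylip*, the LXR-induced ubiquitin ligase of lipoprotein receptors, was at 2.74, *Abcg4*, a sterol transporter, at 3.22 and *Lpcat3*, which remodels phospholipids, at 1.43, while *Stard4*, an SREBP-driven sterol carrier, was at −1.07 and *Nr1h3*, which encodes LXR alpha, at −0.90.

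Other fatty acid enzymes had 4 of 17 higher and 8 lower. *Hacd3*, a dehydratase of the same elongation cycle as *Tecr*, was lower, at −2.09, and the related *Hacd1* was higher, at 1.52. *Idh1*, a cytosolic source of NADPH, was at −0.79. *Scd3* was at 3.15, *Fads3* at −3.61 and *Slc25a1*, the citrate carrier that feeds *Acly*, at 1.12. Of the acyl-CoA synthetases beside *Acsl3*, 0 of 6 were higher, with all 6 differences below 0, and 4 were lower (*Acsl5* at −0.99, *Acsl4* at −1.13, *Acsl6* at −1.35 and *Acsbg1* at −0.72). Enzymes of fatty acid oxidation had 3 of 10 higher and 4 lower, with *Cpt1a*, the gate of mitochondrial entry, at 1.12 and its partner *Cpt2* at −1.50. Opposite directions within 1 short pathway were thus found beside the synthesis genes as well. Across all tested genes 27.1% were higher and 46.6% lower, so both directions are common on these arrays. The genes around the pathways were each read from their brightest kept probe set alone.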

How the data were processed

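Total RNA of cultured optic nerves was measured on 3 L-LY29 and 2 H-LY29 arrays, each assigned to its dose by its label. The authors labelled cRNA with biotin and name MAS-5 in GeneSpring for normalisation. As deposited, the table holds a log2 signal for each of 45101 probe sets, and whether that algorithm made them, and its scaling target, could not be settled from the values. They were used with nothing added and no further normalization.

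Probe sets that name several genes (932) or none (9211), control probe sets, and dim ones were left out. The filter on dim values was a mean over the arrays below their 40th percentile, at 4.77 log2 units, and it kept 23456 probe sets. Each gene was read from its brightest kept probe set. Differences were tested two-sided with limma 3.58.1 (R 4.3.3), using lmFit and then eBayes with trended variance, and Benjamini-Hochberg adjustment ran over all genes or all kept probe sets. The code was first tested on simulated data. The number of arrays limits the precision.

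All genes of the set are named. Of other lists, up to 3 genes with the smallest adjusted p in each direction are named, and genes beside counts of 5 or fewer that fall outside this rule were chosen after their values were seen. The genes and lists were chosen with earlier results of these data known. Alternatives were another filter or none, a floor, 2 scalings, other choices of probe sets, no trend, the replicate number as a block, and each array left out.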

Additional observations from a re-analysis of the deposited data

How the results depend on the processing

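Of 35 genes 13 kept direction and call under all alternatives. Those with a single kept probe set had no other to stand for them. Genes called higher or lower numbered 3510 and 6032, 5299 higher without a filter, and 2904 to 3987 and 5389 to 5825 with an array left out. Quantile normalization turned *Srebf1* to 0.38, *Scap* to 0.12 and *Insig2* to 0.26, called 2 SREBP regulators higher and gave a fatty acid median of 0.48. Equal array medians gave sterol and fatty acid medians of 0.34 and 0.56 and turned *Srebf1* and *Insig2* to 0.12 each. The mean of probe sets gave a fatty acid median of 0.0417 and turned *Hsd17b7* to 0.0885, *Acly* to 0.14, *Scd2* to −0.47 and *Fads1* to −0.13. The second brightest probe set gave a fatty acid median of 0.0621 and 3 sterol genes lower, and turned *Hmgcs1* to 0.31, *Mvk* to 0.0016, *Fdft1* to −0.19, *Scap* to 0.27, *Acsl3* to −0.37, *Elovl7* to 0.69, *Scd2* to −0.99, *Fads1* to −0.61 and *Fads2* to 0.0621. Without _x_at and _s_at probe sets the sterol median was −0.18, and *Fdft1*, *Acsl3* and *Elovl1* stood at −0.19, −0.37 and 0.49. These changes follow from other probe sets standing for the gene. Equal array medians take 1 constant from each array, so the difference of every gene moved by the same 0.21. For quantile normalization the cause was not tested. With an array left out, sterol genes higher and lower numbered 6 and 4 to 6, fatty acid genes 6 to 8 and 3 to 5, SREBP regulators 0 and 3 to 4, and probe sets of the set 25 to 30 and 24 to 30, and the sterol and fatty acid medians were 0.0590 to 0.16 and 0.26 to 0.43. With an array left out *Mvk* ran from −1.11 to 0.0016 and *Elovl7* from −1.22 to 0.54, turning without H-LY29 replicate 1, *Lss* from 0.49 (without L-LY29 replicate 1) to 1.88, and *Acss2* from 0.28 (without L-LY29 replicate 1) to 1.34 (without H-LY29 replicate 2). Another probe set became the brightest in *Mvk*, *Elovl7*, *Lss* and, at 1.34, *Acss2*. A lone H-LY29 array was assumed to vary like the L-LY29 arrays.

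With the replicate number as a block 8359 genes were called. Deviations of arrays with the same number correlated at 0.00889 and 0.0202 over all tested genes. The 2 H-LY29 arrays deviate from their mean by equal and opposite amounts. These values therefore cannot tell whether arrays with the same number shared mice or preparation. Under the block *Ebp*, *Elovl1* and *Scap* no longer passed (−0.32, −0.31 and −0.30) and *Fdps* passed (0.31). No other call on the 35 genes changed. The limits are 5 arrays, equal values between arrays, controls and scaling that differ by dose, and probe sets that disagree.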
